A study of Caenorhabditis elegans with 2 samples.

Results

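Of the 1840 reproducible binding peaks of the homeodomain protein CEH-48 in late embryos of the nematode Caenorhabditis elegans, 142 (7.72%) had their summit in a non-repeat intron. The summit had to lie inside a protein-coding gene body but in no annotated exon of any gene, and outside every promoter window, which runs from 1000 bp before a protein-coding 5′ end to 200 bp after it. It also had to fall on a base that the NCBI reference sequence leaves unmasked and over 200 bp from any tRNA gene. Bases that meet this rule make up 14.3% of the nuclear genome, a larger share than the 7.72% of peaks. Of 392 intron summits outside promoter windows, 240 were at a masked base, meaning a base marked as repeat or low-complexity sequence, and a further 10 were at a tRNA gene. Chromatin immunoprecipitation with sequencing (ChIP-seq) was done on 1 group of 2 biological replicates. Both came from strain OP631, of genotype unc-119(tm4063) III; wgIs631, a single transgenic line that makes CEH-48 with a C-terminal GFP-FLAG tag. Whole embryos of pooled males and females were used, 3.5 hours after synchronization by egg bleaching, so binding in different cell types cannot be told apart. The labels' description gives the antibody as one against GFP, while their antibody tag reads ceh-48, and no embryo without the transgene was analysed here. The peaks, called IDR peaks after the irreproducible discovery rate used to select them, are the 1840 regions with the highest signal in the list pooled over both replicates. Signal is a value of the authors' peak caller with no stated scale.

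CEH-48 belongs to the ONECUT class of cut homeobox transcription factors, which carry a cut domain beside the homeodomain and bind DNA with the core ATCGAT. ONECUT genes of C. elegans are expressed throughout the nervous system and are known to act there on genes that all neurons use, such as those for synaptic vesicle proteins. Introns of this animal, first introns above all, can hold enhancers and the starts of shorter transcripts, so a site inside a gene can act on that gene, on one of its isoforms or on a neighbour.

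The sequences of 100 bp centred on a summit are shown for 11 intron peaks, since the results turn on whether such a window holds ATCGAT. The first 6 are those with the highest signal that hold it on the chromosomes printed here, and the next 3 are those with the highest signal that lack it. The last 2 are both peaks at the cone-1 locus, which also encodes the cut homeobox protein CEH-44, and were chosen after their values were seen. They are from the RefSeq WBcel235 (ce11) genome, plus strand, written 5′ to 3′ in lower case, and capitals mark ATCGAT.
nova-1, chrV:18079387-18079486: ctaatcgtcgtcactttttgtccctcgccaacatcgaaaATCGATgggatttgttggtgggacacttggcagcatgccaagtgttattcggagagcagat
mom-1, chrX:6296476-6296575: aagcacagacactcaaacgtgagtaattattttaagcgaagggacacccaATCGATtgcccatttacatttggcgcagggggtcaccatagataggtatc
Y66A7A.4, chrIII:11615028-11615127: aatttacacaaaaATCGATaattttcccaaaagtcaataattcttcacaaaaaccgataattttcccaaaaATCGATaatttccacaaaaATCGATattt
scc-2, chrII:255238-255337: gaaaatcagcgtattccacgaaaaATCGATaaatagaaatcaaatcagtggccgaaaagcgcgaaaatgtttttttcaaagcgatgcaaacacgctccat
ZK470.2, chrX:4145657-4145756: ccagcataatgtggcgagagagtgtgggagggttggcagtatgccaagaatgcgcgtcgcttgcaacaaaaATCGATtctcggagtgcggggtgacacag
rimb-1, chrIII:1805737-1805836: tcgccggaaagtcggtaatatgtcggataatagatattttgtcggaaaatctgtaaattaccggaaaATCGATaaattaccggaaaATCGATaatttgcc
cutl-18, chrV:11314164-11314263: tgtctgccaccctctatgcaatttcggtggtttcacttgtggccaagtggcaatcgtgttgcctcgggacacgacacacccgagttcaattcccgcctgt
twk-5, chrII:11484759-11484858: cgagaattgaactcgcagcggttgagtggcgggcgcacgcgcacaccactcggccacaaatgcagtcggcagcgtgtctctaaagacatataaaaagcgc
mask-1, chrIV:10380704-10380803: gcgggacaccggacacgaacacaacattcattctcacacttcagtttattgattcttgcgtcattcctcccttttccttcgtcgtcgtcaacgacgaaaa
cone-1 (ceh-44), chrIII:2532965-2533064: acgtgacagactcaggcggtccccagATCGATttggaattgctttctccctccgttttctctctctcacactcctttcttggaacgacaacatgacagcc
cone-1 (ceh-44), chrIII:2535394-2535493: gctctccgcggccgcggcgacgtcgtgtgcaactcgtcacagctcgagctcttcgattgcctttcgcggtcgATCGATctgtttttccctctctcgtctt

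The windows differ in how the core is arranged. The Y66A7A.4 window holds 3 copies of ATCGAT and the rimb-1 window 2, while nova-1, mom-1, scc-2 and ZK470.2 have 1 copy each. The summits in Y66A7A.4 and rimb-1 are at unmasked bases, but 77% and 75% of the surrounding 300 bp is masked. In the mom-1 window the copy lies 2 bp from the summit, in nova-1 8 bp, and in Y66A7A.4, scc-2 and ZK470.2 24 bp. No copy lay within 200 bp of the summit in cutl-18, twk-5 or mask-1. Each cone-1 window holds 1 copy, 22 and 24 bp from its summit.

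The strongest intron peak was in nova-1, which encodes a KH-domain RNA-binding protein of the family of the mammalian neuronal splicing regulators Nova. Its signal was 757 in the pooled list, where it ranked 7, and it was 212 in replicate 1 and 546 in replicate 2, rank 8 in each replicate's own list. It lay in the first of 5 introns, 2520 bp from the gene's 5′ end and 1977 bp from the nearest exon. The nova-1 peak was thus strong in both replicates and far from any exon. It was the only intron peak among the 15 IDR peaks with the highest signal, and 12 were among the first 100.

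The second strongest intron peak was in pbrm-1, a polybromo subunit of a SWI/SNF chromatin remodelling complex, with a pooled signal of 634, 131 in replicate 1 and 502 in replicate 2. The peak in scc-2, which loads cohesin onto chromosomes, had a pooled signal of 440, 122 in replicate 1 and 325 in replicate 2. Both lay within reach of the start of a shorter annotated transcript, and scc-2 held its peak in a first intron of 8367 bp, 92 bp from the nearest exon.

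The next peaks are given by what their host genes do, as background. The peak in mom-1, which encodes the Porcupine-like acyltransferase needed to secrete Wnt ligands, had a pooled signal of 459, 126 in replicate 1 and 333 in replicate 2, and lay 33 bp from an exon. The peak in csnk-1, a casein kinase 1 gene, had a pooled signal of 465, 87.9 in replicate 1 and 374 in replicate 2. Replicate 2 had the higher value in both genes. The peak in rimb-1, whose RIM-binding protein sits at presynaptic release sites, lay in intron 16 of 19 with a pooled signal of 423, 138 in replicate 1 and 312 in replicate 2. The peak in gpb-1, the G protein beta subunit gene, had a copy of ATCGAT at its summit and a pooled signal of 367, 97.4 in replicate 1 and 272 in replicate 2. Peaks in 2 channel genes had pooled signals of 370 (trpa-1) and 381 (twk-5, of the TWIK potassium channel family).

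The other hosts in the top 20 have varied roles. They were cutl-18, a cuticlin-like gene (pooled signal 569), Y66A7A.4 (453), T28F4.1 (443), ZK470.2 (424), F35A5.8 (399) and ubq-1, the polyubiquitin gene (397). The rest were coq-3 of ubiquinone synthesis (396), mask-1, an ankyrin repeat gene (369), cone-1 (352, described next), scm-1 (333) and gei-4 (330). Of the 20, all but cutl-18, twk-5, mask-1 and scm-1 held ATCGAT in the window.

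The cone-1 locus held 2 intron peaks. The annotation used here names it cone-1, and the RefSeq annotation gives the same WormBase gene (WBGene00000464) the symbol ceh-44, a cut homeobox gene of the CUX type, whose product, like CEH-48, has a homeodomain together with cut-type DNA-binding domains. The stronger peak had a pooled signal of 352, 76.9 in replicate 1 and 274 in replicate 2, and the other 299, 74.1 and 222. Both were in the lists of both replicates and were higher in replicate 2. Their summits, 2429 bp apart, lay in the second and the third of the 10 introns of the RefSeq ceh-44 transcript.

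Over all 142 intron peaks the pooled signal ran from 85.4 to 757 with a median of 136 and quartiles of 105 and 225. The median over all IDR peaks was 141, and 66 intron peaks (46.5%) lay above it, compared with 365 of 695 non-repeat promoter peaks (52.5%). This difference did not pass a two-sided Fisher's exact test (odds ratio 0.785, p = 0.198). Peaks are not independent replicates, so here and below p-values and intervals cover the counting of peaks or windows and no difference between embryo preparations. Read numbers were not given in the sources used here, and sequencing depth is therefore unknown.

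Both replicates held most of the intron peaks. A region with its summit within 100 bp was found for 129 in the replicate 1 list and for 141 in the replicate 2 list, and for 128 in both. In replicate 1 the signal of these regions ran from 12.3 to 212 with a median of 43.2, and in replicate 2 from 35 to 546 with a median of 103. Replicate 2 exceeded replicate 1 by 1.45 ± 0.60 on the log2 scale (SD over 128 peaks), on caller values whose scale may differ between lists. Across these 128 peaks Spearman's rho of the replicate signals was 0.705 and Pearson's r of their log2 values was 0.738, given as a description of peaks that share 2 libraries and were selected on the pooled signal. Only 3 of them had the higher value in replicate 1, all with ATCGAT. They were sprr-3, a peptide receptor gene, with 71.5 in replicate 1 and 40.2 in replicate 2, plx-1, a plexin gene, with 43.2 and 35, and sms-3 with 73.6 and 61.3. Of the 300 bp around these summits, 93%, 81.7% and 83.7% was masked in the same order. The median over all intron peaks was 20.5%.

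**Figure D1:**
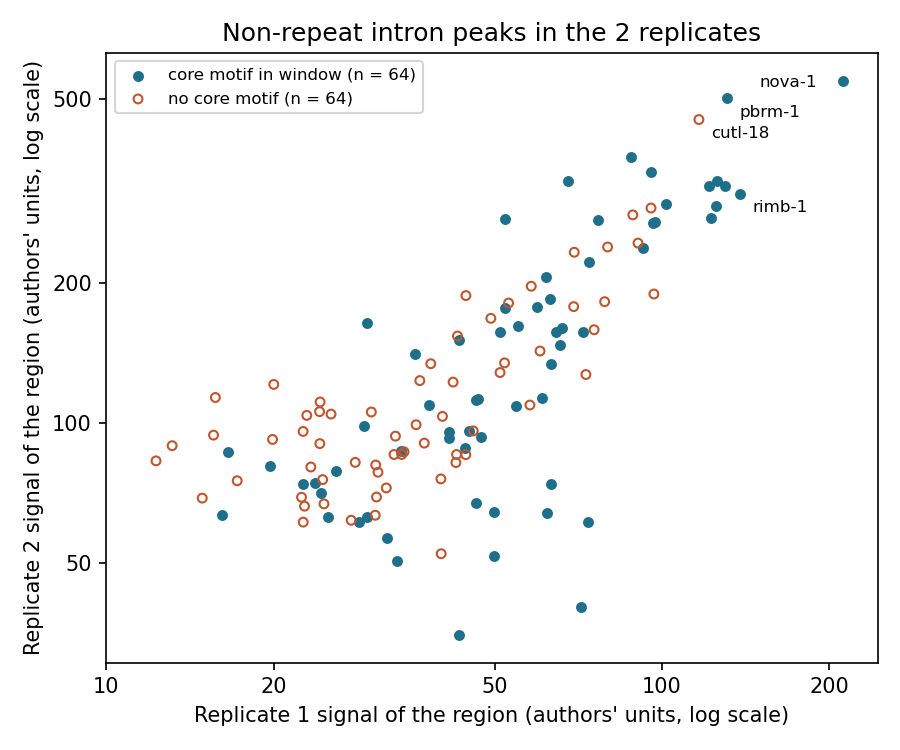
Signal of each intron peak's region in replicate 1 (horizontal, log scale) and replicate 2 (vertical, log scale) for the 128 peaks found in both lists, with filled points for peaks holding ATCGAT within 100 bp and open points for those without. The nova-1 peak is the highest in both replicates, and every open point but cutl-18 lies below 300 in replicate 2.

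Among the 1840 regions with the highest signal in each replicate's own list, replicate 1 held 100 of the intron peaks (70.4%) and replicate 2 held 129 (90.8%). Both held 90 (63.4%, exact binomial 95% interval 54.9 to 71.3%), and neither held 3. Of the non-repeat promoter peaks 486 of 695 (69.9%) were in both, a difference that did not pass the test (odds ratio 0.744, two-sided Fisher's exact p = 0.136). Single genes illustrate the spread. The peak in unc-2, the alpha-1 subunit of the presynaptic voltage-gated calcium channel, had a signal of 15.7 in replicate 1, rank 8228, and 114 in replicate 2, rank 802. The peak in unc-33, which encodes a CRMP protein of axon outgrowth, had no summit within 100 bp in the replicate 1 list and a signal of 103 in replicate 2.

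ATCGAT was far more frequent under intron peaks than in comparable intron sequence. It was present in 67 of 142 windows (47.2%, exact binomial 95% interval 38.8 to 55.7%), but in only 3139 of 141594 tiles (2.22%). The tiles are adjoining windows of 100 bp centred on bases that meet the same rule, over 500 bp from any IDR summit. The odds ratio was 39.4 (two-sided Fisher's exact p = 1.62e-70), and it was 36.5 when peaks and tiles were both limited to a GC content of 40 to 55%. Windows centred 500 bp to each side of the same summits held it in 19 of 284 cases (6.69%). The GC content of the peak windows had a median of 47%, compared with 35% in tiles and flanks.

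The copies lay close to the summit. Of the intron peaks, 53 had a single copy in the window and 14 had 2 or more, up to 4. In 80 peaks a copy was found within 200 bp, at a median distance of 21 bp, and 40 of these lay within 20 bp and 17 within 10 bp. The remaining 62 peaks had none within 200 bp. In bins of 50 bp, 29.6% of intron peaks held a copy in the bin just left of the summit and 28.2% in that just right, compared with 2.82 to 8.45% in all bins over 100 bp away.

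**Figure D2:**
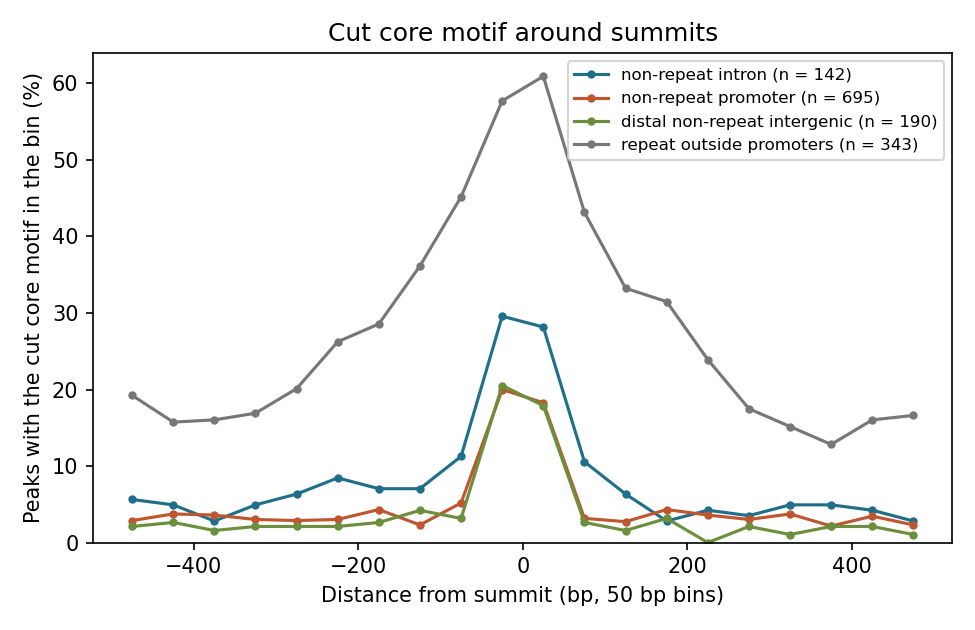
Share of peaks (vertical, %) with the cut core motif ATCGAT in each 50 bp bin by distance from the summit (horizontal, bp) for 4 classes of peaks. Intron peaks reach 29.6% beside the summit, between promoter peaks at 20% and repeat peaks at 60.9%, and repeat peaks keep over 12% in every bin.

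Against other classes of peaks, intron peaks stood apart from repeats but not clearly from promoters. Repeat peaks outside promoters held ATCGAT in 268 of 343 windows (78.1%), more than intron peaks (odds ratio 0.250 for intron against repeat peaks, two-sided Fisher's exact test, p adjusted over 3 classes = 2.46e-10). Non-repeat promoter peaks held it in 260 of 695 (37.4%, odds ratio 1.49, exact test, adjusted p = 0.0552) and distal non-repeat intergenic peaks in 69 of 190 (36.3%, odds ratio 1.57, adjusted p = 0.0552). The last comparison passed from the replicate 1 list alone, with an odds ratio of 1.68 (exact test, adjusted p = 0.0370). From the replicate 2 list alone it did not, with 1.16 (exact test, adjusted p = 0.507). The difference between the 2 lists was not tested. The comparison with promoters passed, with an odds ratio of 1.80 and an adjusted p of 0.00966, when windows around the starts of all transcripts were counted as promoters. It turned to 0.703 with at least 90% of the surrounding 300 bp unmasked (13 of 37 intron and 47 of 108 promoter peaks, exact adjusted p = 0.662). Against intergenic peaks the odds ratio was 0.937 when ATCGAT or ATTGAT counted.

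The base after the core also differed from that in tiles. Of 87 copies in intron peak windows, 61 (70.1%) continued to ATCGATA on at least one strand, compared with 1597 of 3255 copies in tiles (49.1%, odds ratio 2.44, two-sided Fisher's exact p = 0.000119). The Y66A7A.4 and rimb-1 windows above, both in largely masked surroundings, show such copies. The test counts copies, which are not independent, since 14 intron peak windows held 2 or more. Against copies in weaker regions of the same kind the odds ratio was 1.68 (exact p = 0.0568). In the 37 peaks with at least 90% of the surrounding 300 bp unmasked it turned to 0.870 (6 of 14 copies).

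Intron peaks with ATCGAT were stronger than those without. The pooled signal had a median of 160 in the 67 with it and 126 in the 75 without, and the medians were 53.5 and 34.4 in replicate 1 and 113 and 96.2 in replicate 2. Of those with ATCGAT, 38 (56.7%) lay above the IDR median, compared with 28 of those without (37.3%, odds ratio 2.20, two-sided Fisher's exact p = 0.0283). The call was lost when only exons of protein-coding genes were left out, which gives 166 peaks (odds ratio 1.87, exact p = 0.0610), and when starts of all transcripts counted as promoters, which leaves 100 (odds ratio 1.97, exact p = 0.110).

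The share with ATCGAT was lower in each successive bin of the pooled list. Among intron regions of the same kind it was 57.6% of the 66 at ranks 1 to 920 and 38.2% of the 76 at ranks 921 to 1840. Just below the IDR threshold, at ranks 1841 to 3680, it was 21.8% of 238 regions, and it was 7.77% of 206 at ranks 3681 to 5000. It went on to 5.09%, 4.57% and 3.39% in the bins up to ranks 10000, 20000 and 30000. Of the sub-threshold regions, the 4593 over 500 bp from any IDR summit served as a background, and 236 of them held it (5.14%), a lower share than in the intron peaks (odds ratio 16.5, two-sided Fisher's exact p = 3.81e-44). The share of all regions that lay in non-repeat introns moved the other way, from 7.17% in the first bin to 17.1% in the last. Such sequence makes up 14.3% of the nuclear genome.

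**Figure D3:**
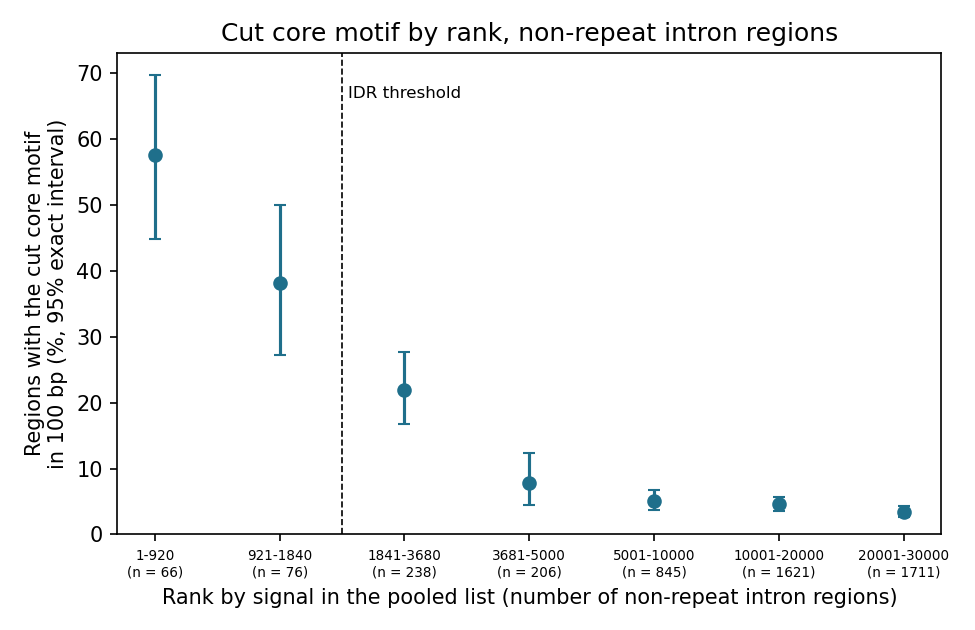
Share of non-repeat intron regions with the cut core motif ATCGAT in 100 bp (vertical, %, bars are exact binomial 95% intervals) by rank of signal in the pooled list (horizontal, with the number of regions). The share is 57.6% in the first bin and 3.39% in the last, and the 21.8% just past the IDR threshold is still above the later bins.

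The IDR threshold falls inside a continuous range of signals. The weakest intron peaks were in myrf-2 (86), aak-2, an AMP-activated kinase gene (85.9), cct-3, a chaperonin subunit gene (85.8), and rad-50, a DNA repair gene (85.4). The first intron regions below it were in fox-1, a splicing regulator gene (84.9), C15H9.5 (84.3), elo-8 (84.2) and K01F9.2 (84.1).

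In a scan of all 2080 sequences of 6 bases with strands collapsed, 320 (15.4%) differed between intron peaks and tiles after Benjamini-Hochberg adjustment (two-sided Fisher's exact tests), 224 higher and 96 lower. The 5 with the smallest p were the core and sequences that overlap it. After ATCGAT itself these were TATCGA, in 38% of peak windows and 3.73% of tiles, AATCGA in 43.7% and 6.51%, CGATAA in 26.1% and 3.60%, and AAATCG in 34.5% and 9.38%. In all, 24 of the 224 share 4 bases in a row with ATCGAT. The number called depended strongly on the background. It was 31 within windows of 40 to 55% GC, 55 against sub-threshold regions (52 of the 320 were called there in the same direction) and 178 from the replicate 1 list alone.

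Of the sequences that share no 4 bases with the core, GAGAGA had the smallest p. It was in 36 intron peak windows (25.4%) and in 5.42% of tiles (odds ratio 5.93, Fisher's exact test, adjusted p = 1.97e-12), and the overlapping AGAGAG was in 22.5% and 4.73%. GAGAGA was also in 6.34% of flanks, 9.45% of sub-threshold regions, 20.1% of promoter peaks and 31.1% of intergenic peaks. It was as common in number beside ATCGAT as without it, with 18 windows each. The ZK470.2 window above holds both.

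Other motifs, searched on both strands, were described by their shares with no test. ATTGAT, which differs from the core at one base, was in 20.4% of intron peaks and 9.01% of tiles, and 19 of its 29 windows lacked ATCGAT. The CpG-rich GCGCGC was in 7.04% and 0.883%, and all 10 of its windows lacked ATCGAT. The homeodomain core TAATTA was in 2.11% and 5.58%, the GATA-type TGATAA in 4.23% and 9.32%, the AP-1-type TGANTCA in 0.704% and 2.85%, and the E-box CAGCTG in 2.11% and 1.68%. CCCNNGGG was in 0 of 142 windows and 0.438% of tiles. In promoter peaks ATTGAT was in 23.0%, GCGCGC in 10.8%, TAATTA in 2.01% and TGATAA in 1.15%. There TGANTCA was in 1.01%, CAGCTG in 3.60% and CCCNNGGG in 0.863%. These shares were not matched for GC content, which had a median of 47% in intron peaks and 35% in tiles.

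The name non-repeat holds for the summit base more than for its surroundings. The masked share of the 300 bp around the summit had a median of 20.5%, compared with 29.3% in tiles, 27.3% in promoter peaks and 79.3% in repeat peaks. It was up to 10% in 37 intron peaks, of which 13 held ATCGAT (35.1%), between 10 and 50% in 81, of which 36 held it (44.4%), and over 50% in 24, of which 18 held it (75%). The share with ATCGAT was thus higher at each step in intron peaks, while in promoter peaks it was 43.5%, 39% and 21.3% in the same order. The rise was not particular to intron peaks, since sub-threshold intron regions had 3.17%, 4.29% and 11.6%. Intron tiles had 2.11%, 2.00% and 3.08%, and intergenic peaks 34.5%, 38.5% and 0 of 5. Of the 87 copies in intron peak windows, 49 touched a masked base. These splits were chosen after the values had been seen and were not tested.

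**Figure D4:**
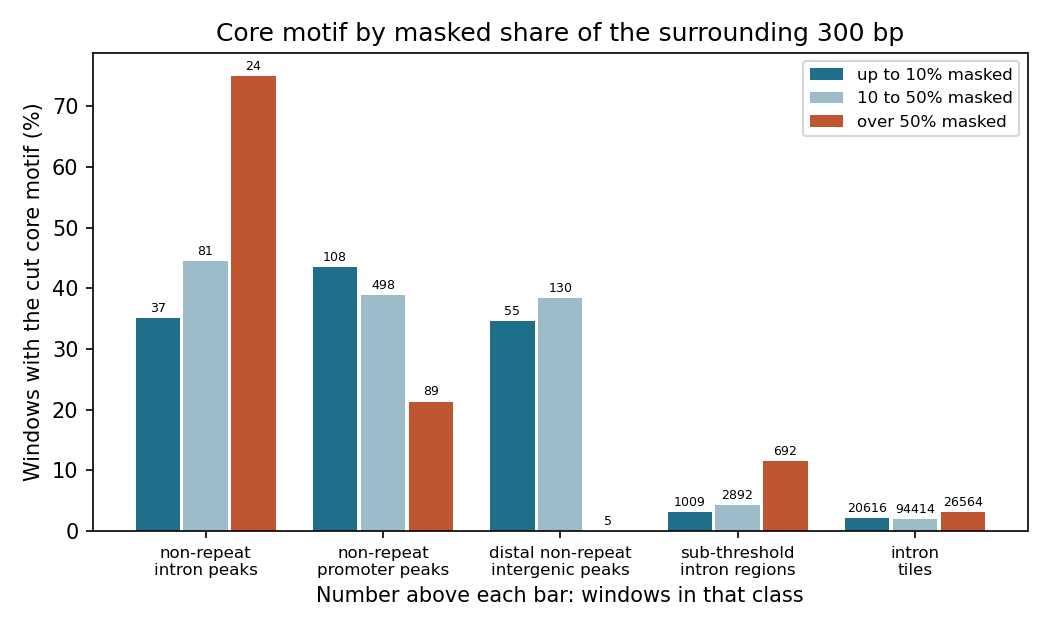
Share of windows with the cut core motif ATCGAT (vertical, %) by the masked share of the surrounding 300 bp, for intron peaks, promoter peaks, intergenic peaks, sub-threshold intron regions and intron tiles (horizontal), with the number of windows above each bar. Intron peaks go from 35.1% at the lowest masked share to 75% at the highest, and promoter peaks from 43.5% to 21.3%.

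Most of the windows had a single alignment in the genome. A search with blastn at an E-value of 1e-05 found a further alignment for 24 of the 142 intron peaks (16.9%). Of these, 9 had 10 or more alignments, their own included. The share with a further alignment was 28.9% of every 100th intron tile, 10.1% of promoter peaks and 73.8% of repeat peaks. A further alignment at the window's own locus would also count. Of the windows printed above, Y66A7A.4 had 756 alignments, rimb-1 221 and nova-1 2, and each of the others had 1. Among the 118 intron peaks with no further alignment, 53 (44.9%) held ATCGAT, close to the 47.2% over all.

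Intron peaks were concentrated near the starts of shorter transcripts. Although gene 5′ ends were left out by rule, 42 of the 142 (29.6%) lay from 1000 bp before to 200 bp after the start of some protein-coding transcript. Such windows cover 12% of the bases that meet the rule, called eligible bases, so the peaks were 2.46-fold in excess (exact binomial test, two-sided, p = 1.78e-08). In 41 of the 42 the transcript belonged to the host gene. Examples were rab-3, which encodes the Rab GTPase of synaptic vesicles (pooled signal 230, 72.2 in replicate 1 and 157 in replicate 2), gsa-1, the stimulatory G protein alpha subunit gene (140, 47.2 and 93.3), and pbrm-1. ATCGAT was in 15 of the 42 and in 52 of the other 100.

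First introns held 47 intron peaks (33.1%) and 23.3% of eligible bases, 1.42 times their share (exact binomial test, two-sided, p = 0.00951). The replicate 1 list alone gave 1.21-fold, which did not pass (exact p = 0.175), and the replicate 2 list alone gave 1.37-fold (exact p = 0.0155). The difference between the 2 lists was not tested. Counting all transcript starts as promoters left 1.28-fold (exact p = 0.146). Introns of 2000 bp or more held 50 peaks (35.2%) and 31.4% of bases, which did not differ by the test (1.12-fold, exact p = 0.366). The introns that held peaks ran from 125 to 11352 bp with a median of 1125, and the summits lay 5 to 3621 bp from the nearest exon with a median of 264.5. The host's 5′ end was a median of 2657.5 bp away, and in 39 peaks the nearest gene 5′ end was that of another gene.

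**Figure D5:**
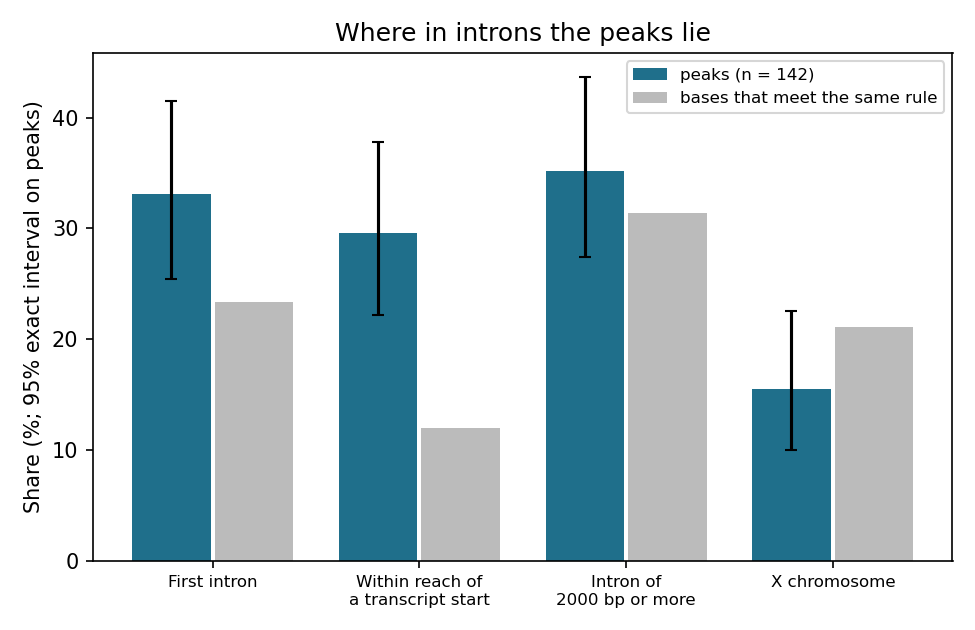
Share of the 142 intron peaks (dark bars, with exact binomial 95% intervals) and of the eligible bases (grey bars) in first introns, from 1000 bp before to 200 bp after a transcript start, in introns of 2000 bp or more and on the X chromosome. The transcript-start bars, 29.6% and 12%, are the furthest apart.

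By chromosome, the peaks were most dense on III, with 33 peaks (23.2%) on 13.9% of eligible bases (1.67-fold, two-sided exact binomial test, p adjusted over 6 chromosomes = 0.0196). Against the sub-threshold regions, of which 18.6% were on III, the excess was 1.25-fold (Fisher's exact test, adjusted p = 0.582). The X chromosome had 22 peaks (15.5%) on 21.1% of bases (0.735-fold, exact test, adjusted p = 0.214), and V had 16 (0.625-fold, exact test, adjusted p = 0.112). Chromosomes I, II and IV had 23, 26 and 22 peaks, at 0.996, 1.33 and 0.916-fold, and none of these passed.

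The 142 peaks lay in 137 host genes, 3 of them in overlapping bodies of 2 genes. No gene had more than 2 intron peaks, and 8 had 2. Among these were egl-27, which encodes an MTA-type chromatin protein (134 and 95.2 in pooled signal, 1942 bp apart), jip-1, a JNK scaffold gene (329 and 131), and ldb-1, a LIM domain-binding cofactor gene (218 and 142). The others were cone-1 (ceh-44), described above, spop-1 (249 and 96.3), eri-12 (226 and 129), F53C11.5 (200 and 129) and Y25C1A.7 (117 and 97.7). In jip-1 and ldb-1 the stronger peak of the pair held ATCGAT and the weaker did not, and in cone-1 both did. No intron peak lay closer than 860 bp to another.

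Hosts were long genes. Their median length was 7312 bp, compared with 2763 bp over all genes with at least 100 eligible intron bases, and their median eligible intron was 1844 and 494 bp. Of the 14037 such genes, 136 (0.969%) held an intron peak, from 0.106% of those in the lowest of 5 groups by eligible intron length to 3.24% in the highest. Per eligible megabase these groups had 6.79, 7.19, 11.4, 8.22 and 10.6 peaks. Counts of genes in a list therefore have to be read beside peaks per megabase, which was 9.97 over all genes.

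In the list of genes used by all neurons, 3 of 46 (6.52%) held an intron peak, or 25 peaks per megabase. They were gpb-1 and rab-3, described above, and unc-33 at a pooled signal of 111. Splicing and RNA-binding regulators had 2 hosts of 34 and 25.7 per megabase, nova-1 and unc-75, a CELF-family splicing factor gene of neurons (pooled signal 105, 16.6 in replicate 1 and 86.8 in replicate 2). The list of neuronal identity transcription factors had 2 of 65, egl-27 and mef-2 (pooled signal 114), at 18.4 per megabase. Of its 3 peaks, 2 were in egl-27, described above as the gene of a chromatin protein. No test was made on any list, and each of these rests on 3 peaks or fewer. The counts cover the listed genes only, and the host rimb-1, of presynaptic release sites, was in no list.

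Other neuronal lists lay below the 9.97 per megabase of all genes. Axon guidance and adhesion had 2 hosts of 56 at 7.15 per megabase, plx-1 and ptp-3, a LAR-type receptor phosphatase gene (pooled signals 139 and 86.3). Neuronal kinases and G proteins had 2 of 59 at 7.87 per megabase, gsa-1 and pct-1, a PCTAIRE kinase gene (140 and 102). Ion channels had 1 of 55 at 3.59 per megabase, unc-2 (124), in a list that left out some channel genes, the hosts trpa-1 and twk-5 among them. Neuropeptide receptors had 1 of 105 at 4.79 per megabase, sprr-3 (140). Neurotransmitter receptors had 0 of 65 and neuropeptides 0 of 77.

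Of the 6 cut homeobox genes in the list used here, ceh-44 (cone-1) was a host, with its 2 peaks. The listed ceh-21, ceh-38, ceh-39, ceh-41 and ceh-48 were not. The IDR peak at rank 3, with a pooled signal of 818, had its summit in a gap between exons of ceh-38. It was left out because that summit lies in a promoter window. The ceh-44 locus was the 1 host among 58 ceh homeobox genes, at 29.1 per megabase. Nuclear hormone receptors had 1 of 240 at 4.31 per megabase, nhr-64 (pooled signal 91.2, with no summit within 100 bp in the replicate 1 list). Developmental signalling had 1 of 66 at 5.99 per megabase, mom-1. The cytoskeleton list had 2 of 75 at 11.9 per megabase, unc-33 and klp-20, a kinesin-II motor gene (89.8) that was also the 1 host of 47 cilia genes, at 14.3 per megabase. The dystrophin complex had 1 of 14 at 31.0 per megabase, dyb-1, the dystrobrevin gene (pooled signal 221, 62.9 in replicate 1 and 185 in replicate 2).

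No host was found in the lists of other tissues. These were body wall muscle (0 of 49), pharynx (0 of 26), intestine (0 of 30), hypodermis (0 of 40) and germline (0 of 33), and the same held for basement membrane and matrix (0 of 35), ribosomal proteins (0 of 9) and chemoreceptors (0 of 1108). At 0.969% of genes these lists other than chemoreceptors would hold few hosts, and the chemoreceptors have a median of 301.5 eligible bases, compared with 494 over all genes. Over all lists together 18 of 2336 genes (0.771%) held an intron peak, and 118 of the 11701 genes in no list did (1.01%). Hosts in no list include the cuticlin-like cutl-18, so a count of 0 above covers the listed genes only.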

How the data were processed

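ChIP-seq region lists of 2 biological replicates were used in ce11 coordinates. The signal and the −log10 q-value of each region are the authors' deposited values, in narrowPeak format per the file headers and the deposited read-me files. The authors made a list per replicate (28372 and 30000 regions) and a pooled one (30000), each mixing peaks with background as input for IDR. The −log10 q-value was at its highest, 3.35, in 88 of the 142 peaks and was not used for ranking. For the aligner, the caller and the cutoff of the IDR step, versions and settings were not given in the sources used here. Lists in ce10 were not used.

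Summits were placed with the soft-masked RefSeq WBcel235 sequence and Ensembl release 115 (19973 protein-coding and 612 tRNA genes, 6 nuclear chromosomes). Eligible bases, 14.3 Mb, meet the same rule as the peaks. Introns are gaps between a gene's merged exons. The frm-7 summit, rank 9, was left out because it lies in an exon of another annotated gene, and that of dys-1, rank 10, because its base is masked; 166 peaks result when only protein-coding exons count. Windows were tested with two-sided Fisher's exact tests and positions with two-sided exact binomial tests against shares of eligible bases. List genes were matched by their Ensembl name or by the RefSeq symbol of the same WormBase gene, through which ceh-44 was found as cone-1. Named genes are hosts of the 20 peaks with the highest signal, those with 3 or more peaks, up to 4 per list and the cut homeobox genes; the 2-peak hosts and the peaks beside the threshold were named after their values were seen. The peaks, lists and tests were chosen with earlier results of these data known. The GC limit, masked splits, genome search and chromosome III alternatives were added after seeing the data. Alternatives were other windows, backgrounds, exon, promoter and mask rules, the 920 strongest IDR peaks, and each replicate alone. Python 3.11.15, numpy 2.4.6, pandas 2.3.3, scipy 1.17.1, matplotlib 3.10.9 and blastn 2.17.0 were used.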

Additional observations from a re-analysis of the deposited data

How the results depend on the processing

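Of 128 recomputed values under alternatives, 101 kept their direction and their side of the threshold, or for the number of 6-mers stayed within 1.5 times. These counts, and those below for single results, include the joining of intron peaks within 200 bp. That alternative could change nothing, since no intron peak lay closer than 860 bp to another. The excess of ATCGAT over tiles held in 13 of 13 alternatives (odds ratio 12.5 to 59.9), the deficit against repeat peaks in 10 of 10 (0.116 to 0.429) and the transcript-start excess in 8 of 8 (1.98 to 3.52-fold). Against promoter peaks the ATCGAT odds ratio passed with 200 bp windows (1.47) and with all transcript starts as promoters (1.80), and reversed to 0.703 with 90% of 300 bp unmasked. Against intergenic peaks it passed with 200 bp windows (1.62) and with all transcript starts (1.90), reversed to 0.937 for ATCGAT or ATTGAT, and ranged from 1.16 to 1.68 when 1 replicate was left out. The ATCGATA odds ratio lost its call with 50 bp windows (1.39), against sub-threshold regions (1.68) and in the strongest 920 IDR peaks (1.31), and reversed to 0.870 with 90% unmasked. The number of 6-mers called was 120 against flanks, 55 against sub-threshold regions, 179 with all transcript starts, 23 with 90% unmasked, 165 in the strongest 920, 31 at 40 to 55% GC, and 178 to 414 when 1 replicate was left out. The odds ratio of strong peaks with and without ATCGAT was 1.87 with protein-coding exons only and 1.97 with all transcript starts, both no longer called. The first-intron excess was not called with all transcript starts (1.28), with 90% unmasked (1.49) or in the range of 1.21 to 1.37 when 1 replicate was left out, at its lower end. The long-intron value reversed to 0.955 against sub-threshold regions. The chromosome III excess was not called against sub-threshold regions (1.25), with 90% unmasked (1.72) or in the strongest 920 (1.63). The cause of these changes was not tested, except that the 90% rule leaves 37 peaks and the strongest 920 hold 66. No paired analysis was possible because there is only 1 group. A peak counted as missing from the replicate 1 list had no summit within 100 bp there, and a region with a shifted summit would also count as missing. Read depth per replicate is not known either, so such a peak is not shown to be absent.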

Other observations

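Sequence patterns beside ATCGAT were noticed in a few windows after their values had been seen, and none was tested. The palindrome bound by nuclear factor I proteins in vertebrates, TTGGC followed after 5 bases by GCCAA, was present in the nova-1 and ZK470.2 windows, 2 of 142 intron peaks (1.41%), both of which also hold ATCGAT. It was in 81 of 141594 intron tiles (0.0572%), none of which holds ATCGAT, and in 12 of 4593 sub-threshold intron regions (0.261%), 1 of which holds ATCGAT. It was also in 1 of 190 distal intergenic peaks (0.526%) and 1 of 695 promoter peaks (0.144%), neither with ATCGAT, and in 0 of 343 repeat peaks. A match is a description of these letters only.

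The intron peaks without ATCGAT include several with a sequence typical of tRNA genes, although summits within 200 bp of an annotated tRNA gene were left out. GTTCNANNC, the box B pattern of tRNA promoters, was in 10 intron peaks (7.04%), 3.52% of intron tiles, 3.31% of promoter peaks and 68 of 145 peaks at tRNA genes (46.9%). Of the 10, 9 lacked ATCGAT, in cutl-18, twk-5, Y57G11C.22, mix-1, Y38F2AR.12, T24H7.2, smrd-1, rbm-34 and mdt-4, and 1, in aak-2, held it. The cutl-18 and twk-5 peaks were the strongest intron peaks without ATCGAT, at signals of 569 and 381. Peaks at tRNA genes as a class held ATCGAT in 3 of 145 windows (2.07%).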
